A study of Mus musculus with 31 samples.

Results

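The 5 genes described here, Tmie, Lancl1, Igf2bp2, Sstr2 and Zfp708, were chosen by name as genes with lower RNA in mouse liver after loss of the transcription factor Mlx. They are 5 of the 41549 genes in the 5-month liver table and 5 of the 36333 genes in the old-liver table, and all 5 passed the filter on low counts in both tables. The Mlx-loss values at 5 months chose them, so those values are given as a description with no test. Zfp708 did not follow its label: its RNA was low in livers without Mlx alone but not in livers without Mlx and Myc, and its reads could not be told apart from those of the overlapping gene Gm28557, as described below. Sstr2 followed its label in part: it was as low in the female wild-type livers at 5 months as in livers without Mlx. In the old set Sstr2 was higher in adenomas without Mlx than in wild-type livers.

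Poly(A) RNA was sequenced from 31 libraries in 6 groups. The 5-month livers, all fasted for 14 h, were 5 double knockouts (DKO; a tamoxifen-activated Cre, Cre-ERT2, inserted at the Rosa26 locus, with floxed Mlx and floxed Myc; all male), 4 Mlx knockouts (MlxKO; the same Cre with floxed Mlx; all male), 6 Myc knockouts (MycKO; the same Cre with floxed Myc; 4 males and 2 females) and 6 wild types (WT; C57/B6, with no Cre named; 4 males and 2 females). The old, non-fasted set held 5 liver adenomas (albumin-driven Cre-ERT2 with floxed Mlx; aged 17, 14, 17, 17 and 15 months; 4 labelled female and 1 male) and 5 WT livers (C57/B6, aged 17 months; 2 females and 3 males). All mice, WT included, were given tamoxifen ip (75 mg/kg once a day over 5 days) at 28 days of age. The Rosa26 Cre acts in the whole body and the albumin Cre in hepatocytes, and in every comparison with WT the loss of a gene cannot be told apart from Cre-ERT2 or strain. The labels do not tie each library to its own animal, and the p-values below rest on library-to-library spread, part of which may be technical.

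Mlx is a basic helix-loop-helix leucine zipper protein that works as the dimer partner of MondoA and ChREBP, which turn on genes of sugar and lipid metabolism when glucose metabolites rise, and of some Mxd repressors; Myc uses the related partner Max. Both networks read the E-box CACGTG, and ChREBP with Mlx reads a pair of E-boxes set apart by a short spacer. Tmie is a membrane protein of the mechanotransduction channel of inner-ear hair cells, Lancl1 is a glutathione-binding relative of bacterial lanthionine cyclases, Igf2bp2 binds mRNAs (Igf2 mRNA among them) and reads the m6A mark, Sstr2 is a receptor for the hormone somatostatin that couples to Gi proteins and so lowers cAMP, and Zfp708 belongs to the zinc finger genes with a KRAB repressor domain. None of them is among the textbook ChREBP targets listed below.

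Total counts per library were 18226467 to 28476797 at 5 months, 34590164 to 37087490 in the adenomas and 16036626 to 18690029 in the old WT livers. Levels below are in CPM (counts scaled to the library total after TMM), and fold changes are edgeR quasi-likelihood estimates on the log2 scale with their standard errors, fitted with sex over 13397 genes at 5 months and 13954 in the old set. Mlx averaged 17.0 ± 1.45 CPM in DKO (n = 5), 18.95 ± 2.28 CPM in MlxKO (n = 4), 24.4 ± 2.27 CPM in MycKO and 26.4 ± 1.95 CPM in WT (SD, n = 6 each). The targeted gene therefore kept much of its poly(A) RNA in the Mlx knockouts, and the sources used here do not give the exons that the loxP sites flank. Myc averaged 1.31 ± 0.728 CPM in DKO, 10.0 ± 3.18 CPM in MlxKO, 1.67 ± 0.692 CPM in MycKO and 12.9 ± 6.75 CPM in WT. In the old set Mlx was 19.9 to 29.9 CPM in adenomas, against 31.8 to 43.8 CPM in old WT livers. In these bulk samples, fewer cells of a type and less RNA per cell cannot be told apart.

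The bases before each start site are shown because the members were grouped by loss of a DNA-binding protein. They come from RefSeq on GRCm38.p6, 5′ to 3′ on the gene's strand. For Lancl1, Igf2bp2 and Sstr2 bases inside annotated exons are left out, and the 2 short Zfp708 stretches, which lie in exons of neighbouring genes, show its E-boxes alone. Capitals mark the motif TGACGTCA (the cAMP response element) in Sstr2 and the E-box CACGTG in Zfp708. The windows are chr1:67038890-67039084 for Lancl1, chr16:22163300-22163549 for Igf2bp2, chr11:113619077-113619326 for Sstr2, and chr13:67098099-67098124 and chr13:67098013-67098038 for the 2 E-boxes of Zfp708. Lancl1, Igf2bp2 and Zfp708 lie on the minus strand and Sstr2 on the plus strand.
Lancl1: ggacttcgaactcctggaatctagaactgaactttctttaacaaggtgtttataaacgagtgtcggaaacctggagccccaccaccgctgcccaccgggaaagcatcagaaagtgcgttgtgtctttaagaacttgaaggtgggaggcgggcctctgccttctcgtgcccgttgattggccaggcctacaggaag
Igf2bp2: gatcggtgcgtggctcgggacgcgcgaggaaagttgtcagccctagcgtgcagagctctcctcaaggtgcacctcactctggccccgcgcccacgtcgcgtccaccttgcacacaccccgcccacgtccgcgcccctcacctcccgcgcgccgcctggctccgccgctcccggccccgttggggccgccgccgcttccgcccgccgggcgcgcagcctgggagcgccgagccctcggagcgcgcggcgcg
Sstr2: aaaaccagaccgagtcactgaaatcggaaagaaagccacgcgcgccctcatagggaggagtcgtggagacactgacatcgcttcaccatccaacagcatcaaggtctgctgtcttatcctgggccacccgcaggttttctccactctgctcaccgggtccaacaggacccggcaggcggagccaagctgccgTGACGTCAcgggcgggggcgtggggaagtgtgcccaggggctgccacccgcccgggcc
Zfp708 E-box 1: agcttgcctgCACGTGgggaggacgt
Zfp708 E-box 2: aacccctacaCACGTGcagaaaaaga

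CACGTG, which reads the same on both strands, was found upstream of Zfp708 only, at 2 places with 132 and 46 bases between the motif and the RefSeq start, and in none of the windows of the other 4 members. Among 32851 mouse windows of the same length, 6.02% held CACGTG, and none held the motif paired with itself at a spacing of 5 bases. With none in any window, the paired search could not set the members apart from other genes. TGACGTCA, searched after the sequence had been read, was in 1.55% of those windows. The Zfp708 window that holds both E-boxes lies wholly within annotated exons of neighbouring genes. The other Zfp708 window (chr13:67081546-67081795) lies within the annotated span of Zfp708 itself. Of the Tmie window 98.8% lies in exons, so the Tmie window is not printed.

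Tmie (ENSMUSG00000049555; chr9:110865711-110880113, minus strand) was low in every liver without Mlx. DKO livers had 3.57, 4.65, 3.0, 2.26 and 2.41 CPM and MlxKO livers 4.59, 1.92, 3.38 and 4.54 CPM. MycKO livers spanned 9.16 to 23.9 CPM (median 12.8), and WT livers spanned 8.46 to 19.3 CPM (median 12.0). The DKO and MlxKO livers thus overlapped each other and lay below every MycKO and WT liver. The fitted log2 difference was -1.88 ± 0.31 for MlxKO minus WT, a 3.67-fold lower level, -2.06 ± 0.29 for DKO minus WT and -2.24 ± 0.29 for DKO minus MycKO. Tmie shares 244 of its 3094 exon bases with Als2cl on the opposite strand, and the sources used here do not say whether counting used strand. Als2cl itself differed by 0.22 on the log2 scale in MlxKO minus WT (edgeR adjusted p = 0.46).

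Lancl1 (ENSMUSG00000026000; chr1:67000517-67038872, minus strand) had the smallest difference in MlxKO minus WT and the smallest standard errors. DKO livers had 10.4, 11.9, 10.8, 10.1 and 10.3 CPM, and MlxKO livers had 12.7, 11.49, 12.0 and 12.1 CPM. MycKO livers spanned 10.6 to 19.8 CPM (median 16.6), and WT livers spanned 12.7 to 24.4 CPM (median 17.9). The DKO livers lay below all WT livers, and the highest MlxKO liver sat just under the lowest WT liver. The 2 lowest MycKO livers, at 10.6 and 11.6 CPM, were the females of that group, and they overlapped the DKO livers. The log2 difference was -0.80 ± 0.13 for MlxKO minus WT (1.74-fold lower), -0.97 ± 0.12 for DKO minus WT and -0.76 ± 0.12 for DKO minus MycKO.

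Igf2bp2 (ENSMUSG00000033581; chr16:22059009-22163299, minus strand) was close to the detection limit in livers without Mlx, with 3 to 12 counts per DKO library and 5 to 7 per MlxKO library. DKO livers had 0.510, 0.437, 0.391, 0.343 and 0.164 CPM, and MlxKO livers had 0.248, 0.234, 0.333 and 0.320 CPM. MycKO livers spanned 0.945 to 4.89 CPM (median 3.41), and WT livers spanned 0.470 to 2.24 CPM (median 1.34). Here the MycKO livers were the highest group and did not overlap the DKO livers, while 1 WT liver fell within the DKO range. The log2 difference was -1.98 ± 0.41 for MlxKO minus WT, -1.58 ± 0.37 for DKO minus WT and -2.82 ± 0.36 for DKO minus MycKO, which is 7.05-fold lower.

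Sstr2 (ENSMUSG00000047904; chr11:113619342-113626028, plus strand) rested on 2 to 10 counts in each library without Mlx. DKO livers had 0.139, 0.164, 0.293, 0.490 and 0.219 CPM, and MlxKO livers had 0.248, 0.280, 0.143 and 0.107 CPM. MycKO livers spanned 0.730 to 2.51 CPM (median 1.44), and WT livers spanned 0.0952 to 3.71 CPM (median 1.40). All MycKO livers lay above all DKO livers, but the WT livers split: the 4 males had 0.889 to 3.71 CPM, and the 2 females, WT 3 and WT 4, had 0.0952 and 0.166 CPM, as low as the livers without Mlx. The log2 difference, with sex in the fit, was -3.20 ± 0.59 for MlxKO minus WT (9.17-fold lower), -2.79 ± 0.52 for DKO minus WT and -3.17 ± 0.55 for DKO minus MycKO.

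Zfp708 (ENSMUSG00000058883; chr13:67069399-67097976, minus strand) had 0.371, 0.656, 1.43, 1.77 and 1.59 CPM in DKO livers. In MlxKO livers it had 0, 0, 0.380 and 0 CPM, where 0 counts allow up to 0.135, 0.144 and 0.161 CPM in MlxKO 1, 2 and 4 (3 counts over the plain library total). MycKO livers spanned 0.400 to 1.56 CPM (median 0.830), and WT livers spanned 0.480 to 3.595 CPM (median 1.74). Only the MlxKO livers were low, and the DKO livers overlapped both the MycKO and the WT livers. The log2 difference was -3.69 ± 0.80 for MlxKO minus WT, -0.14 ± 0.56 for DKO minus WT and 0.80 ± 0.57 for DKO minus MycKO.

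Because the choice of members used these contrasts, their counts are given without reading. In MlxKO minus WT all 5 members were past an adjusted p of 0.05 and lower, where 1.06% of all tested genes were, and 4 of 5 had groups that did not overlap, where 2.94% of tested genes were lower without overlap. In DKO minus WT 4 of 5 were lower (10.9% of all genes) and 2 of 5 did not overlap (5.21%). In DKO minus MycKO 4 of 5 were lower (7.52%) and 3 of 5 did not overlap (6.18%). The WT libraries serve both WT comparisons and the DKO libraries serve both DKO comparisons.

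**Figure D1:**
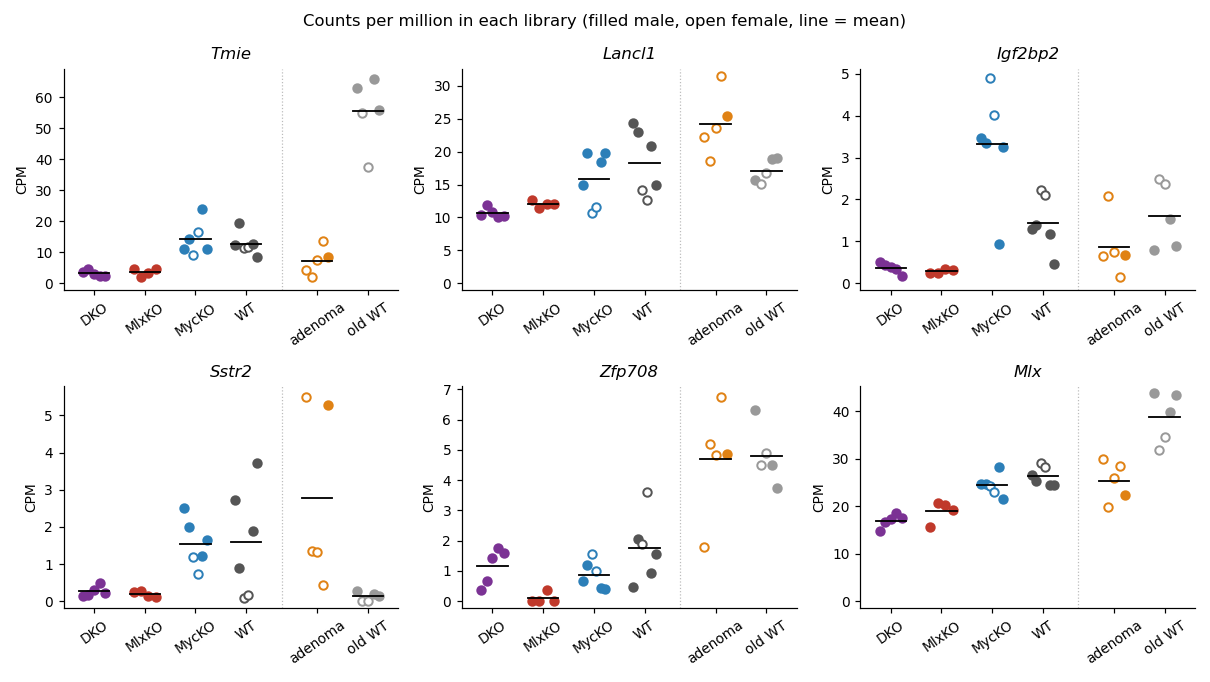
CPM (y axis) of the 5 members and Mlx in each library, by group (x axis: DKO, MlxKO, MycKO and WT at 5 months, then adenoma and old WT); filled points are males, open points females by label, and lines the group means. Tmie lay at 1.92 to 4.65 CPM in all 9 livers without Mlx at 5 months and at 8.46 to 23.9 CPM in the other 12.

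Most of the exon sequence of Zfp708 belongs also to Gm28557, a longer annotated gene on the same strand. Of the 2633 exon bases of Zfp708, 2537 (96.4%) lie in exons of Gm28557, and 94.3% of its 75-base stretches occur in another gene. Over both genes together, MlxKO livers had 155, 178, 125 and 144 counts, of which Zfp708 was given 0, 0, 8 and 0. DKO livers had 117, 126, 242, 128 and 120 counts for the pair. The split between both names, and not their sum, was thus what set the MlxKO livers apart: Zfp708 took 6.84 to 28.1% of the pair in DKO, 0 to 6.40% in MlxKO, 6.45 to 51.0% in MycKO and 11.9 to 54.2% in WT.

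The summed pair had 5.42 to 7.89 CPM in DKO, 5.94 to 8.32 CPM in MlxKO, 2.38 to 7.34 CPM in MycKO and 4.03 to 6.64 CPM in WT, with overlap between all 4 groups. Fitted as 1 gene, an alternative chosen after seeing the data, the pair differed by 0.37 ± 0.24 in MlxKO minus WT (edgeR adjusted p = 0.38), by 0.27 ± 0.23 in DKO minus WT (0.43) and by 0.49 ± 0.23 in DKO minus MycKO (0.17). Neither direction nor call of the MlxKO value for Zfp708 alone was kept. The sources used here do not say how the authors' counting assigned reads that both genes share, and the Zfp708 values are therefore uncertain throughout.

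**Figure D2:**
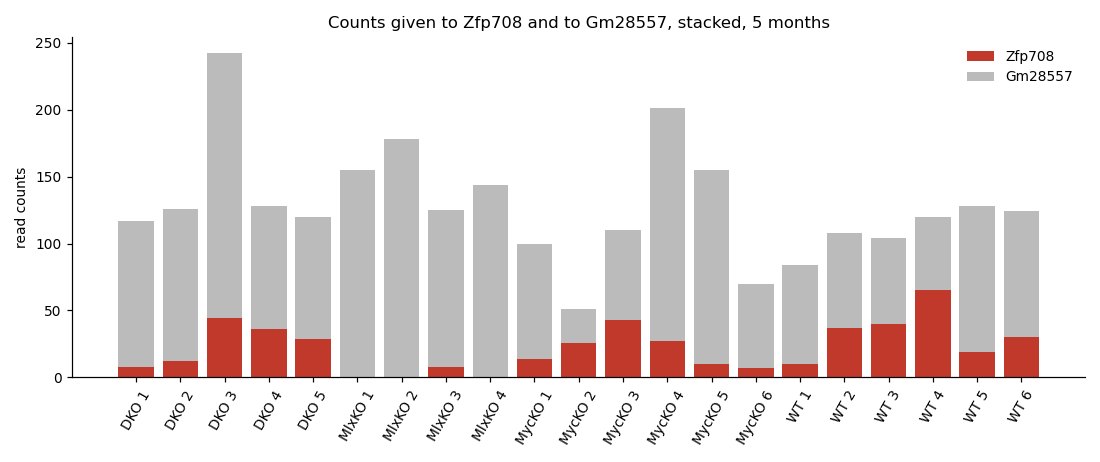
Deposited counts (y axis) of Zfp708 and Gm28557, stacked, in each 5-month library (x axis, by group). In MlxKO livers 0 to 8 counts carried the name Zfp708, while the pair summed to 125 to 178 counts, against 84 to 128 in WT livers.

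Per gene length, by the TPM the authors deposited (a transcript level scaled by gene length and library), Tmie was the most abundant member in WT livers, at 8.71 ± 1.82 TPM (SD, n = 6). Lancl1 followed at 5.74 ± 1.41 TPM, and the 2 ranges, 6.69 to 11.9 and 3.77 to 7.35 TPM, overlapped. Sstr2 at 1.66 ± 1.62 TPM and Zfp708 at 1.42 ± 0.821 TPM did not differ beyond their spread, and Igf2bp2 was lowest at 0.416 ± 0.184 TPM. In the 2 WT females alone Sstr2 was lowest, at 0.129 TPM, below Igf2bp2 at 0.626 TPM. In MlxKO livers Lancl1 came first at 4.28 ± 0.414 TPM, ahead of Tmie at 2.84 ± 1.05 TPM, with the other 3 members at 0.336 TPM or less in every library.

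Loss of Myc, which the choice of members did not use, was tested in liver with Mlx (MycKO minus WT) and without it (DKO minus MlxKO); these comparisons share the WT and MlxKO libraries that the choice used. No member was called in either by edgeR's quasi-likelihood test, where 0.0896% and 0.0373% of all tested genes were; 1 member in each had an unadjusted p under 0.05, and DESeq2 called 1 in each. Igf2bp2 had the largest change with Mlx present, at 3.32 ± 1.31 CPM in MycKO and 1.44 ± 0.650 CPM in WT (SD, n = 6 each), a log2 difference of 1.23 ± 0.29 (adjusted p = 0.15). That value was called with DESeq2 (adjusted p = 0.022) and without MycKO 5, the 1 MycKO liver at 0.945 CPM (log2 1.40, adjusted p = 0.016). Without Mlx, Igf2bp2 averaged 0.369 ± 0.130 CPM in DKO and 0.284 ± 0.0501 CPM in MlxKO, a difference of 0.39 ± 0.44 (adjusted p = 0.99).

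Tmie differed by 0.18 ± 0.25 in MycKO minus WT (adjusted p = 0.93) and by -0.19 ± 0.31 in DKO minus MlxKO (0.99). Lancl1 differed by -0.22 ± 0.11 in MycKO minus WT (0.66) and by -0.17 ± 0.13 in DKO minus MlxKO (0.97). Both values of each gene were smaller than its Mlx-loss differences. Sstr2 differed by 0.38 ± 0.44 in MycKO minus WT (0.91) and by 0.41 ± 0.66 in DKO minus MlxKO (0.99).

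Zfp708 was higher in DKO than in MlxKO by 3.55 ± 0.79 on the log2 scale, which did not pass (adjusted p = 0.14). In the authors' deposited table the same comparison, written as MlxKO over DKO, has a log2 fold change of -3.54 with an FDR p of 0.0026. DESeq2 called it as well (log2 3.63, adjusted p = 0.0011), as did edgeR without MlxKO 3 (adjusted p = 0.013), where every remaining MlxKO liver is at 0 counts and the fit gives no measured fold. With Gm28557 counted as the same gene, the difference was -0.10 ± 0.24 (adjusted p = 0.997).

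**Figure D3:**
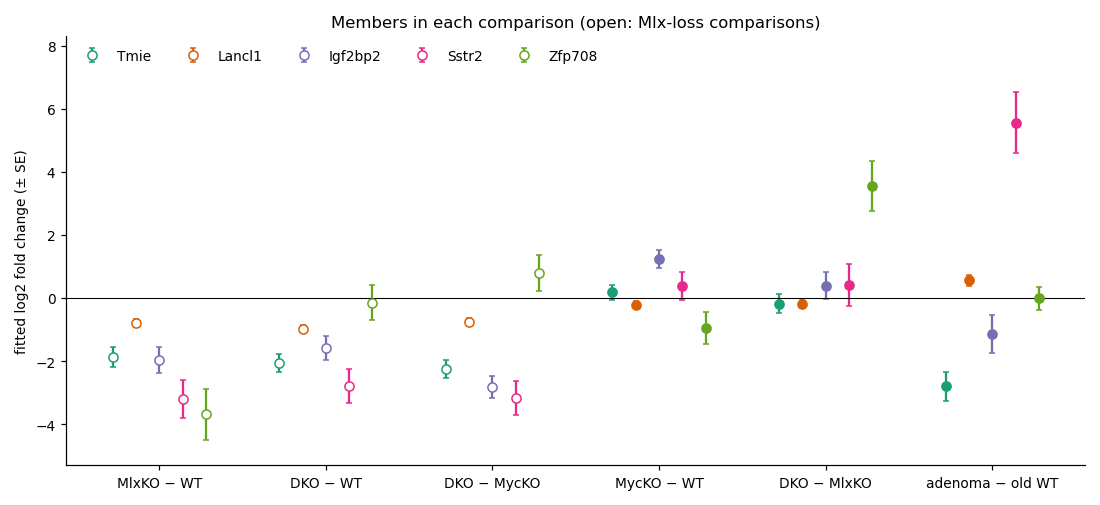
Fitted log2 differences (y axis) with standard errors for each member in the 5-month comparisons and in adenoma minus old WT (x axis). Open points are the Mlx-loss comparisons that chose the members, filled points those that did not. Tmie was at -1.88 to -2.80 in all 4 comparisons that lack Mlx on 1 side, and Sstr2 was at -3.20 in MlxKO minus WT but at 5.56 in adenoma minus old WT.

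Sex was the other comparison at 5 months that did not use the choice; it rests on the 4 female and 8 male libraries of MycKO and WT, the groups that hold both sexes. Lancl1 and Sstr2, 2 of 5 members, were lower in females, where 2.13% of all tested genes were. Lancl1 had 10.6 and 11.6 CPM in MycKO females, against 14.9 to 19.8 CPM in MycKO males. In WT it had 14.2 and 12.7 CPM in females, against 14.9 to 24.4 CPM in males. All females were thus below all males of their genotype, with a log2 difference of -0.67 ± 0.12 (edgeR adjusted p = 0.0019), and the call held without each library in turn (adjusted p 0.00011 to 0.016). The share of all tested genes that split the sexes in this way was not counted. In size this is near the MlxKO minus WT value of -0.80, and the male DKO and MlxKO livers, at 10.1 to 12.7 CPM, lay near the MycKO and WT females.

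Sstr2 had a female minus male difference of -1.98 ± 0.51 on the log2 scale (edgeR adjusted p = 0.032), which rested largely on 2 libraries. MycKO females had 1.19 and 0.730 CPM, against 1.22 to 2.51 CPM in MycKO males. WT females, WT 3 and WT 4, had 0.0952 and 0.166 CPM, from 2 and 3 counts, against 0.889 to 3.71 CPM in WT males. The call was lost without WT 3 (adjusted p = 0.13), without WT 4 (0.16) and without MycKO 4 (0.063). Igf2bp2 went the other way without passing: 4.89 and 4.02 CPM in MycKO females against 0.945 to 3.47 CPM in males, and 2.24 and 2.10 CPM in WT females against 0.470 to 1.39 CPM in males, a log2 difference of 0.84 ± 0.29 (adjusted p = 0.13). Tmie differed by -0.22 ± 0.26 (0.71) and Zfp708 by 1.01 ± 0.51 (0.32).

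**Figure D4:**
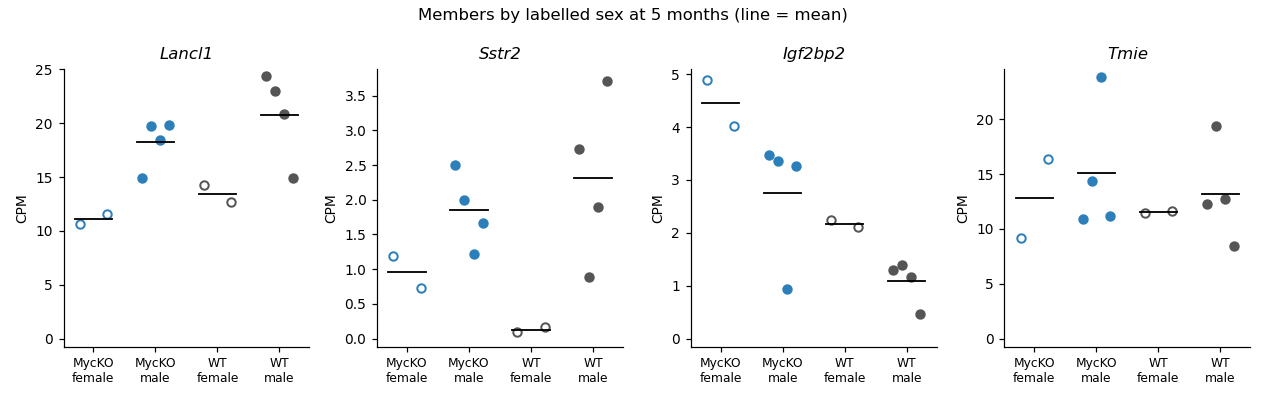
CPM (y axis) of Lancl1, Sstr2, Igf2bp2 and Tmie in the MycKO and WT livers, females beside males (x axis); each point is a library. Every female was below every male of the same genotype for Lancl1, and for Igf2bp2, which was not called, every female was above. The share of all tested genes that split the sexes like this was not counted.

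WT 3 and WT 4 also stood apart from the other WT livers at further genes of chromosome 11, which holds both Sstr2 and Mlx, 12.5 Mb apart. By a fixed rule the genes most like Sstr2 over the 21 libraries at 5 months (Pearson r of log2 CPM) were Kpna2 (r = 0.901), a nuclear import receptor 5.91 Mb from Mlx, and Cyb561 (r = 0.893), a transmembrane electron carrier 4.87 Mb from Mlx. Kpna2 was nearly on or off: 0.0547 to 0.820 CPM in DKO, 0.0828 to 1.01 CPM in MlxKO, 33.1 to 58.1 CPM in MycKO, and in WT 0 CPM in WT 3 and WT 4 against 41.8 to 57.4 CPM in the other 4. Cyb561 had 1.43 to 2.18 CPM in DKO, 1.21 to 1.78 CPM in MlxKO and 5.76 to 10.3 CPM in MycKO; WT 3 and WT 4 had 2.05 and 1.38 CPM, against 6.17 to 10.7 CPM in the other WT livers. All 3 genes thus split the same libraries, low in DKO, MlxKO, WT 3 and WT 4 and high in MycKO and the 4 WT males, so at 5 months the Sstr2 level followed a library split that the Mlx genotype alone does not give. The part of that split, of sex or of strain in the Sstr2 differences was not tested. Kpna2 has a near-identical copy, Gm10184, so its counts are uncertain.

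Between Mlx and Sstr2, 3 of 126 tested genes were lower in MlxKO minus WT (2.38%; Kpna2, Cyb561 and the small GTPase gene Rnd2) and 1 was higher (Abca5), against 0.831% lower on the rest of chromosome 11 and 1.05% on other chromosomes. In DKO minus WT the same stretch had 13 of 126 lower (10.3%), against 10.7% on other chromosomes. Sstr2 also lies inside the annotated span of Slc39a11 (chr11:113244853-113650079, minus strand), a zinc transporter gene read from the other strand, and shares no exon base with it. Slc39a11 had 5.74 to 12.0 CPM in DKO, 4.07 to 9.99 CPM in MlxKO, 9.78 to 27.7 CPM in MycKO and 6.25 to 25.1 CPM in WT, again with WT 3 and WT 4 lowest at 7.23 and 6.25 CPM. Its log2 difference was -1.24 ± 0.27 in MlxKO minus WT (edgeR adjusted p = 0.026) and -1.18 ± 0.26 in DKO minus MycKO (0.0071). Of the 30 nearest tested genes around the 5 members, Slc39a11 was the 1 called in MlxKO minus WT (1.69% of all tested genes were).

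In the old set the members parted. Tmie was called lower, where 7.68% of all tested genes were (16.4% in either direction). Sstr2 was higher (8.74% of all genes were called higher), but it entered the test through the adenomas alone, so its values are given as a description. Adenomas carry the albumin-driven deletion and are tumours of non-fasted mice, while the old WT livers are normal tissue, so tumour, Cre, strain and Mlx loss cannot be told apart here.

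Tmie had 4.32, 1.93, 7.50, 13.8 and 8.33 CPM in adenomas 1 to 5, against 63.1, 55.0, 37.5, 66.1 and 56.0 CPM in old WT livers 1 to 5. Every adenoma was below every old WT liver; 9.15% of tested genes were lower without overlap. The log2 difference was -2.80 ± 0.45, 6.97-fold lower (edgeR adjusted p = 0.0040; exact permutation test p = 0.0079, 2-sided and the smallest this design allows). The authors' deposited table gives old WT over adenoma as 2.94 on the log2 scale, with an FDR p of 2.27e-17. Old WT livers held more Tmie than any 5-month group, but the tables were normalised separately and old mice were not fasted, so no test was made between ages.

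Sstr2 had 5.504, 1.35, 1.32, 0.424 and 5.27 CPM in adenomas, from 241, 67, 50, 16 and 217 counts. Old WT livers had 0.287, 0, 0, 0.201 and 0.147 CPM, from 4, 0, 0, 3 and 2 counts. All adenomas were above all old WT livers (8.97% of tested genes were higher without overlap), though their counts ran from 16 to 241. Summed, 591 counts against 9 gave a ratio per total count of 32.2 (95% exact counting interval 16.9 to 70.8, which covers counting error only, and would be wider if the mostly even adenoma counts hold each fragment as a pair). The fitted log2 difference was 5.56 ± 0.97 and moved with the sex term, since both old WT libraries at 0 are female: it was 4.47 with no sex term, 9.32 with adenoma 5, whose Xist and Y-linked counts go against its male label, taken as female, and 8.88 without adenoma 5 and with no filter. The direction, the same in all of these, is the reverse of that at 5 months. Cyb561, which split the 5-month libraries as Sstr2 did, was also higher in adenomas, at 9.91 to 40.9 CPM. Old WT livers had 0.502 to 1.40 CPM of Cyb561 (log2 4.42, edgeR adjusted p = 0.00074). Kpna2 was not called, at 28.9 to 41.4 CPM in adenomas and 17.5 to 51.6 CPM in old WT livers (0.24, 0.57). The part of the 5-month library split in these old-set values was not tested.

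Lancl1 had 22.3, 18.5, 23.7, 31.6 and 25.4 CPM in adenomas, against 15.8, 15.2, 16.7, 18.8 and 19.1 CPM in old WT livers. Its log2 difference of 0.56 ± 0.17 just missed the threshold (edgeR adjusted p = 0.051; exact permutation test p = 0.024). Per gene length it was the most abundant member in adenomas, at 13.1 ± 1.45 TPM, against 6.48 ± 0.547 TPM in old WT livers (SD, n = 5 each). Lancl1 was thus not lower in the adenomas.

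Igf2bp2 had 0.639, 2.07, 0.742, 0.159 and 0.680 CPM in adenomas, against 0.789, 2.49, 2.36, 1.54 and 0.881 CPM in old WT livers. The groups overlapped, with a log2 difference of -1.14 ± 0.61 (edgeR adjusted p = 0.22; exact permutation test p = 0.095). Zfp708 had 1.78, 5.19, 4.85, 6.76 and 4.85 CPM in adenomas, against 6.31, 4.51, 4.90, 4.49 and 3.75 CPM in old WT livers. Its log2 difference was -0.01 ± 0.37 (edgeR adjusted p = 0.99). The old set uses another kind of gene identifier than the 5-month set, and Gm28557 was not tested there. The Zfp708 levels of both sets may therefore not count the same reads. By the labelled sexes no member was called between the sexes in the old set, where 0 of all tested genes were (48 genes with adenoma 5 taken as female and 37 without it, no member among them); 0 of 5 had an unadjusted p under 0.05, and DESeq2 called 0.

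Marker sums of several cell types moved with the adenoma comparison. The hepatocyte list (10 of 11 in the table) summed to 30820 to 47718 CPM in adenomas, against 106022 to 156249 CPM in old WT livers. Of the 10 markers Alb alone was called, at -3.81 on the log2 scale, where 7.68% of all genes were called lower. The median over the list was -0.31, so the fall of the sum was not shared evenly by the list. None was at 0. The cholangiocyte list summed to 82.3 to 657 CPM in adenomas, against 67.1 to 83.6 CPM in old WT livers, with Sox9 (1.65) and Spp1 (3.35) called higher. The neutrophil list summed to 7.93 to 84.3 CPM in adenomas, against 4.35 to 9.57 CPM in old WT livers, with S100a8, S100a9, Csf3r and Retnlg called higher. Adenoma 4 had the highest Tmie and the lowest Sstr2 of the adenomas, and also the lowest cholangiocyte sum, 82.3 CPM against 386 to 657 CPM in the other 4. Its Kupffer cell (217 CPM), neutrophil (7.93 CPM) and stellate cell (106 CPM) sums were the lowest of the adenomas as well. Adenoma 2 had the highest cholangiocyte sum, 657 CPM, with Sstr2 at 1.35 CPM.

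Endocrine and neuronal markers, which would mark other cells known for somatostatin receptors, summed to 0.239 to 2.63 CPM in adenomas, against 1.27 to 2.60 CPM in old WT livers, with Chga, Ins1 and Ins2 at 0 in both groups. T and NK cell markers summed to 7.66 to 31.4 CPM in adenomas, against 3.08 to 4.49 CPM in old WT livers, with Cd8a and Nkg7 called higher and Trac listed at 0. The Kupffer cell sum was 217 to 1797 CPM in adenomas, against 191 to 564 CPM in old WT livers. The part of these cells in the Tmie and Sstr2 results was not tested. At 5 months the hepatocyte sums overlapped between all groups, at 78745 to 110507 CPM in DKO, 90203 to 126049 CPM in MlxKO, 78949 to 127776 CPM in MycKO and 89915 to 146710 CPM in WT. Of the 10 hepatocyte markers 2 were called lower in DKO minus WT, where 10.9% of all genes were (5 unadjusted, 4 by DESeq2). None was called in MlxKO minus WT (2 unadjusted, 0 by DESeq2). DKO minus WT also called 2 of 10 endothelial, 2 of 10 stellate and 1 of 7 cholangiocyte markers higher (7.58% of all genes). It called 1 of 6 B cell markers lower, and of 7 T and NK cell markers 1 lower and 1 higher. Kupffer sums were 141 to 266 CPM in DKO, 200 to 307 CPM in MlxKO, 362 to 620 CPM in MycKO and 191 to 522 CPM in WT. Of the 10 Kupffer markers 7 were called lower in DKO minus WT (median -1.01), 9 in DKO minus MycKO (median -1.20) and 0 in MlxKO minus WT (median -0.68; 8 had an unadjusted p under 0.05, and DESeq2 called 3). T and NK cell markers were lower for 3 of 7 in DKO minus MycKO. The part of these cells in the DKO values of the members was not tested.

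**Figure D5:**
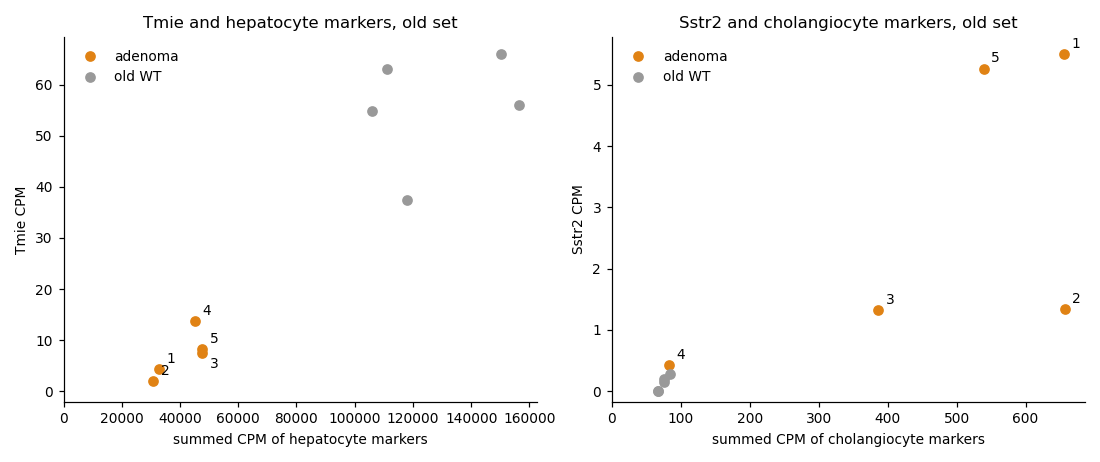
Old set: Tmie (CPM, y axis) against the summed CPM of hepatocyte markers, and Sstr2 (CPM) against the summed CPM of cholangiocyte markers; each point is a library, with adenomas numbered. Adenomas sat at 1.93 to 13.8 CPM Tmie with hepatocyte sums of 30820 to 47718 CPM, and old WT livers at 37.5 to 66.1 CPM with sums of 106022 to 156249 CPM. Over the hepatocyte markers the median log2 difference was -0.31, with Alb alone called.

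Of the 30 neighbours, 7 were called in DKO minus WT, 3 of them higher, where 18.5% of all tested genes were called. In adenoma minus old WT 4 of 29 tested were called, where 16.4% of all tested genes were. Both counts are near those shares, so the neighbours below are a description. Near Tmie, Ccdc12 was lower in DKO minus WT (-0.81, edgeR adjusted p = 0.017) and in adenoma minus old WT (-0.86, 0.018). Near Igf2bp2, Map3k13 (0.83, 0.035) and Tra2b (0.43, 0.034) were higher in DKO minus WT, opposite in sign to Igf2bp2. Near Lancl1, Atic was lower in DKO minus WT (-0.33, 0.032). Acadl, a mitochondrial fatty acid oxidation enzyme, was higher in DKO minus WT (0.38, 0.042) and lower in adenoma minus old WT (-1.16, 0.0031), each time opposite in sign to Lancl1. Near Sstr2, Fam104a was lower in DKO minus WT (-0.62, 0.0052) and in DKO minus MycKO (-0.48, 0.027), and Slc39a11 was lower in DKO minus WT (-0.90, 0.020). Also near Sstr2, Kcnj2 and Sox9, which lie 2553 and 837 kb from its start, were higher in adenoma minus old WT (2.88, 0.014, and 1.65, 0.025), as Sstr2 was. Slc39a11, around Sstr2, was not called there (0.17, 0.71). The 22 other tested zinc finger genes within 1 Mb of Zfp708 had adjusted p of 0.179 or more in MlxKO minus WT; Zfp738 was higher in DKO minus WT (0.46, 0.035) and Zfp493 was lower in adenoma minus old WT (-1.71, 0.037).

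The genes most like the other members over the 21 libraries at 5 months, as a description across libraries that share the same genotype groups, were for Tmie Pygl, liver glycogen phosphorylase (r = 0.945), Khk, ketohexokinase (r = 0.936), and the clotting factor genes F7 (0.934) and F2 (0.931). Pygl had 120 to 158 CPM in DKO, 118 to 150 CPM in MlxKO, 180 to 411 CPM in MycKO and 249.4 to 352 CPM in WT, with the DKO and MlxKO livers below all others as for Tmie. Lancl1 was most like Gch1 (0.912), which makes tetrahydrobiopterin, and 2310001H17Rik, Edem2 and Ambp (0.852 to 0.879). Igf2bp2 was most like Tmem159 (0.915), Tap2 (0.912), Slc25a47 (0.895) and the pyruvate dehydrogenase kinase gene Pdk1 (0.881), and Pdk1 had 21.3 to 29.9 CPM in DKO, 21.2 to 32.4 CPM in MlxKO, 55.3 to 93.7 CPM in MycKO and 34.4 to 79.8 CPM in WT. Zfp708 had no close companion, with Rhno1 highest at 0.778.

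Over the 10 old libraries Tmie was most like Nipsnap1 (r = 0.988), Mpst (0.987), Adipor2 (0.987) and Ppp2r5a (0.983), and Sstr2 was most like Cav2 (0.968), Olfm2 (0.965), Dnase1l1 (0.953) and Cd9 (0.949). Lancl1 was most like Cobl (0.964), Igf2bp2 like Vldlr (0.954) and Zfp708 like 4732465J04Rik (0.939). No gene was among the 4 most like a member in both sets. In a design of 2 groups such values follow the group difference.

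Among relatives of the members, Lancl2 moved opposite to Lancl1. Lancl2 had 7.66 to 9.07 CPM in DKO, 7.24 to 8.42 CPM in MlxKO, 5.18 to 6.24 CPM in MycKO and 4.14 to 7.19 CPM in WT. It was higher in MlxKO minus WT by 0.59 (edgeR adjusted p = 0.047, where 0.634% of genes were called higher), in DKO minus WT by 0.63 (0.0060, where 7.58% were) and in DKO minus MycKO by 0.52 (0.021, where 4.36% were), and its level did not differ in the adenomas (0.05, 0.94). Lancl3 stayed at or below 0.274 CPM. Of 10 tested genes of glutathione synthesis and reduction edgeR called none in MlxKO minus WT (4 had an unadjusted p under 0.05, and DESeq2 called 2). In DKO minus WT Gpx4, which reduces lipid peroxides, was lower (-0.80, 0.0030) and Oplah was higher (0.54, 0.026), and Oplah was lower in the adenomas (-0.91, 0.020). Of all genes 18.5% were called in DKO minus WT and 16.4% in the adenomas.

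Of the Igf2bp2 relatives, Igf2bp3 had 0.0530 to 1.55 CPM in adenomas, against 0.289 to 0.536 CPM in old WT livers (log2 0.37, edgeR adjusted p = 0.80), and Igf2bp1 had 3 counts or fewer in every group. Igf2, the growth factor whose mRNA gave the family its name, had 2.09 to 6151 CPM in adenomas, against 0.532 to 1.10 CPM in old WT livers (11.6, 0.012). H19 is the noncoding RNA of the same imprinted region. It had 77.3 to 6679 CPM in adenomas, against 0.143 to 0.938 CPM in old WT livers (13.0). Like Sstr2, H19 entered the test through the adenomas alone, so its values are given as a description. DESeq2 called 1 of the 5 tested genes of this list. Both Igf2 and H19 were thus above all old WT livers in every adenoma while Igf2bp2 overlapped. Of 18 tested genes that write, erase or read m6A, edgeR called none in MlxKO minus WT (7 had an unadjusted p under 0.05, and DESeq2 called 2). Rbm15b (0.43) and Ythdc2 (1.0) were higher in DKO minus WT (7.58% of all genes were), and of 17 tested in the adenomas edgeR called none (2 unadjusted, 1 by DESeq2).

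Of the somatostatin system Sstr2 was the 1 gene tested. Sst and Cort, which encode the ligands, and Sstr5 had 0 counts in all 31 libraries, and Sstr1, Sstr3 and Sstr4 had 0 to 8, 0 to 3 and 0 to 10 counts per group. Of 10 tested Gi/o subunits and adenylyl cyclases edgeR called none in MlxKO minus WT (3 had an unadjusted p under 0.05, and DESeq2 called 0). In DKO minus WT Gnai1 (1.27, edgeR adjusted p = 0.011) and Adcy6 (0.61, 0.0080) were higher, where 18.5% of all genes were called, 7.58% of them higher calls. In the adenomas Gnai2 (0.67, 0.023) and Adcy7 (1.63, 0.010) were higher and Adcy9 (-0.75, 0.048) was lower among 12 tested, where 16.4% of all genes were called.

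Of the hair cell mechanotransduction list 6 of 15 genes were tested, and of the 5 besides Tmie none was called in MlxKO minus WT or in DKO minus WT by edgeR or DESeq2 (1 and 2 had an unadjusted p under 0.05 in edgeR). Cib3, a calcium-binding partner of the channel, went opposite to Tmie: 8.92 to 19.4 CPM in DKO and 5.23 to 9.77 CPM in MlxKO, against 0.219 to 3.56 CPM in MycKO and 0.332 to 19.1 CPM in WT. It was called higher in DKO minus MycKO (2.43, edgeR adjusted p = 0.018). In the adenomas Cib3 had 35.2 to 114 CPM, against 0.0734 to 0.645 CPM in old WT livers (7.69). Like Sstr2, Cib3 entered the old-set test through the adenomas alone, so these values are given as a description. Myo7a was higher in the adenomas (0.67, 0.037). Of 8 genes of the KRAB co-repressor machinery edgeR called none in MlxKO minus WT (3 had an unadjusted p under 0.05, and DESeq2 called 2). Atf7ip (0.64, 0.018), Cbx5 (0.45, 0.037) and Smarcad1 (0.66, 0.022) were higher in DKO minus WT (7.58% of all genes were). The first 2 were also higher in DKO minus MycKO (4.36%), and Trim28 (0.56, 0.040) and Morc3 (0.81, 0.031) were higher in the adenomas (8.74%).

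The textbook ChREBP and Mlx targets are given beside the members as a description. In MlxKO minus WT 5 of 20 tested were lower (1.06% of all genes were) and none higher, with a median of -0.60 over the list and -0.02 over all genes: Pklr (-2.27), Tkfc (-1.69), Khk (-1.65), Me1 (-1.0) and Slc2a2 (-3.23), which serve glycolysis, fructose use, lipogenesis and glucose transport. In DKO minus WT 7 of 20 were lower (10.9% of all genes) and 1 higher, with a median of -0.51. In DKO minus MycKO 11 of 20 were lower (7.52% of all genes), with a median of -0.84, and in MycKO minus WT and DKO minus MlxKO none was called by edgeR or DESeq2 (3 and 1 had an unadjusted p under 0.05). In the adenomas 8 of 21 were lower (7.68% of all genes) and none higher, with a median of -1.26, among them Pklr (-3.13), Slc2a2 (-2.43), Me1 (-2.27), Khk (-2.14), Klf10 (-1.59), Tkfc (-1.49) and Gpd1 (-1.42). Tmie, at -2.80 in the adenomas, was the 1 member called in the direction of this list there. Igf2bp2 was lower in the adenomas without passing (-1.14, edgeR adjusted p = 0.22). The lower direction of the members in MlxKO minus WT came with their choice, so it was not set against this list. In the Mlx and Myc network, apart from the targeted genes, Mycl was lower in DKO minus WT (-1.51), and in the adenomas Mxd4 was lower (-0.68, 0.047) and Mxd1 higher (0.91, edgeR adjusted p = 0.022).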

How the data were processed

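Poly(A) RNA-seq tables of 31 mouse liver libraries were used. The authors deposited total counts per gene, not normalized, and TPM per library, 1 table per age set; the submitters' processing notes name GRCm38.p6, and the sources used here give no aligner, counter, strandedness or test of the authors. The log2 fold changes and FDR p-values of the authors' own comparisons, per the file headers, were printed only where named.

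The deposited counts went unscaled into edgeR 4.0.16 (limma 3.58.1, R 4.3.3): filterByExpr with a minimum count of 10, TMM, a quasi-likelihood fit on group and labelled sex within each age set, and Benjamini-Hochberg adjustment over all tested genes, called at an adjusted p under 0.05. The standard error is the log2 difference over the root of F. DESeq2 1.42.0, limma-voom, no filter, other scalings and samples, and leaving out each library were alternatives. Scripts were tested on simulated data. In the adenoma libraries 81.0 to 83.1% of counts of 1 to 19 were even, against 42.3 to 44.1% in old WT livers, so halved counts were also tried. Adenoma 5, labelled male, had Xist at 985 CPM and 0 counts over 4 Y-linked genes; the label was kept, with female as an alternative.

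The members and lists were chosen with earlier results of these data known, and the contrast that chose the members is taken to be Mlx loss at 5 months. Named genes were the members, Mlx, Myc, the 3 nearest tested genes on each side, the 4 most alike by Pearson r of log2 CPM (prior count 2), family relatives and list members called in the adenomas; other list genes and those between Mlx and Sstr2 were named after their values were seen. A gene that this rule names is not reported here. Likeness takes part of its shape from the group differences. Annotation was GENCODE on GRCm38 and RefSeq on GRCm38.p6. The deposited RPKM and CPM columns, 42 and 20 of them, were not used. Counting intervals and floors (3 counts) cover counting error only, since no molecular identifiers are named.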

Additional observations from a re-analysis of the deposited data

Results flagged for a closer look

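Zfp708 in MlxKO 3 stood apart from its group: it had 0.380 CPM (8 counts), and the other 3 MlxKO livers had 0. This was 1 of 30 combinations of a member and a group looked at, and chance flags about 1 in 20. With the other 3 livers at 0, any value above 0 would have been flagged, so that rate does not apply here. In MlxKO 3 the pair of Zfp708 and Gm28557 had 125 counts, the fewest of the MlxKO livers. Leaving MlxKO 3 out made the DKO minus MlxKO difference of Zfp708 pass (edgeR adjusted p = 0.013), with every remaining MlxKO liver at 0 counts and so no measured fold.

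The effect of Myc loss on Zfp708 went opposite ways without and with Mlx. As a log2 ratio of mean CPM it was 3.61 for DKO over MlxKO and -0.996 for MycKO over WT, and every DKO liver was above the MlxKO mean while every MycKO liver was below the WT mean. The difference between both effects was not tested. With Gm28557 counted in, the fitted differences were -0.10 and -0.22.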

How the results depend on the processing

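Replicate numbers of the 5-month groups were given in accession order. No paired analysis was possible because the labels do not tie libraries of different groups to each other. The number of members called was 5 in MlxKO minus WT and 3 with no sex term, 2 with only the compared groups, 3 with males only, and 2 to 5 leaving out each library: Igf2bp2 lost the call without MlxKO 2, 3 or 4, Sstr2 without MlxKO 4 and Zfp708 without WT 2 or MlxKO 1, 2 or 4, and Lancl1 with no sex term or only the compared groups. It was 0 in MycKO minus WT and in DKO minus MlxKO, and 1 in each with DESeq2 and 0 to 1 leaving out each library. It was 2 between the sexes at 5 months (1 to 2) and 2 in the adenomas with Sstr2 counted (1 to 3); Sstr2 could not be tested after the filter without adenoma 1, 2, 3 or 5 or with halved counts, but with no filter gave 5.67 without adenoma 3 and 8.88 without adenoma 5, both chosen after seeing the data. Lancl1 in the adenomas passed with DESeq2 (0.032), with no sex term (0.034) and with halved counts (0.048), and without adenoma 1 (0.050), 2 (0.032) or 4 (0.049). Directions turned for Sstr2 in MycKO minus WT (-0.040 with no sex term, -0.32 with males only), for Zfp708 with Gm28557 counted in (0.37 in MlxKO minus WT, 0.27 in DKO minus WT, -0.10 in DKO minus MlxKO), and for Tmie between the sexes (0.11 without WT 2, WT 5 and MycKO 5). Leaving out each library, Zfp708 ranged over -0.37 to 0.10 in DKO minus WT, -0.15 to 0.16 in the adenomas and -0.15 to 0.087 between the sexes of the old set, and Tmie over -0.020 to 0.33 in MycKO minus WT. The cause was not tested. Over all genes, calls numbered 227 in MlxKO minus WT (849 with DESeq2, 122 with no sex term, 96 with males only, 38 with only the compared groups), 12 in MycKO minus WT (74, 7, 2 and 1), 5 in DKO minus MlxKO (47 with DESeq2, 2 with limma-voom or males only, 22 with only the compared groups), 2475 in DKO minus WT (1520 with males only, 1220 with only the compared groups), 2290 in the adenomas (3503 with DESeq2, 3486 with no sex term, 1005 with adenoma 5 as female), 466 between the sexes at 5 months (822 with DESeq2) and 0 between those of the old set (104 with DESeq2, 48 with adenoma 5 as female). Leaving out 1 library moved these counts to 45 (MlxKO 4) to 1055 (WT 6) in MlxKO minus WT, 1218 (WT 2) to 3195 (WT 6) in DKO minus WT, 892 (DKO 5) to 1772 (MycKO 4) in DKO minus MycKO, 2 (WT 4) to 25 (MycKO 5) in MycKO minus WT, 1 (MlxKO 2) to 6 (MlxKO 3) in DKO minus MlxKO, 704 (old WT 2) to 2906 (adenoma 4) in the adenomas and 216 (WT 4) to 618 (MycKO 1) between the sexes at 5 months. Depth limits Igf2bp2, Sstr2 and Zfp708, which had 8 counts or fewer in each MlxKO library.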
